A study of Mus musculus with 4 samples.

Results

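EGR, NR4A and IER genes, with the phosphatase gene Dusp1, are immediate early genes, which cells switch on quickly without first making new protein. The 10 genes Egr1, Egr2, Egr3, Nr4a1, Nr4a2, Nr4a3, Ier2, Ier3, Ier5 and Dusp1 were chosen by symbol, as early genes that enzymatic digestion of tissue can induce. They are 10 of the 54532 genes counted in every library, and all 10 passed the filter on low counts. The series holds 4 libraries, 2 unirradiated and 2 irradiated, and each pair is lettered A and B. The irradiated group received 6 Gy of radiation aimed at the tumour, and the unirradiated group none. Both groups came from C57BL/6 mice with MMTV-PyMT tumours described as Dll1 mcherry+. PyMT is a viral oncogene driven in mammary epithelium by the MMTV promoter, and mcherry is a fluorescent protein, here paired with the Notch ligand gene Dll1. All titles carry day 6, and the treatment label of the irradiated group gives targeted radiation at day 6. The tissue is given as breast cancer-associated fibroblasts, after digestion with collagenase and hyaluronidase and a PDGFRa antibody. The sources used here do not give the sex or age of the mice, the interval from radiation to collection, the cell fraction that was sequenced, or whether A and B are separate animals. A p-value here therefore weighs a difference against the spread of these libraries alone, which may be of technical origin.

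Early genes are transcribed within minutes of a growth factor, a stress or a mechanical stimulus, and their RNAs decay soon afterwards. MAP kinase signalling acts on serum response factor (SRF) and its ETS partners at CArG boxes, and on CREB at cyclic AMP response elements (CREs). The EGR proteins are zinc finger transcription factors that bind GC-rich sites. The NR4A proteins are orphan nuclear receptors, active without a known circulating ligand. Ier2, Ier3 and Ier5 were named as immediate early response genes: IER3 modulates survival and ERK signalling, and IER5 takes part in activating heat shock factor. DUSP1 removes phosphate from p38, JNK and ERK kinases, so it closes the loop that induced it. In digested tissue the same genes can be switched on between removal of the tumour and lysis of the cells, and RNA from that step cannot be separated from RNA present in the tumour.

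The DNA before the starts of these genes was searched for motifs through which early genes are known to be induced. RefSeq promoter windows on GRCm38.p6 were found for 7 of the 10 genes, and the 250 bases before each start were searched on both strands. Egr1, Egr3 and Ier2 had no entry. The stretches below are those with the CRE core, TGACG or on the opposite strand its complement CGTCA, printed along the gene's own strand. Capitals mark the core, and in Egr2 also the CArG box that lies 72 to 63 bases before the start.

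Egr2 (chr10:67537746-67537830, plus strand): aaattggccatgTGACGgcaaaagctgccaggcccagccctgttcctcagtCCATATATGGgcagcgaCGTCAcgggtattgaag
Nr4a1 (chr15:101266601-101266822, plus strand): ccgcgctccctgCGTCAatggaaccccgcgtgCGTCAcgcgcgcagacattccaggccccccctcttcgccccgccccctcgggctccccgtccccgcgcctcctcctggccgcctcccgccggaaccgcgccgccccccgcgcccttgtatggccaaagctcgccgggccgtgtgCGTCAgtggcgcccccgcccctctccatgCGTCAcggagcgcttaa
Nr4a2 (chr2:57124098-57124215, minus strand): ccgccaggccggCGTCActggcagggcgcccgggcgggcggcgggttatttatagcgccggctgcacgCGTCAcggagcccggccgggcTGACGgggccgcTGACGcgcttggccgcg
Nr4a3 (chr4:48045062-48045116, plus strand): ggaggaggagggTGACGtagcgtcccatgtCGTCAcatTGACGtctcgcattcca
Dusp1 (chr17:26508596-26508675, minus strand): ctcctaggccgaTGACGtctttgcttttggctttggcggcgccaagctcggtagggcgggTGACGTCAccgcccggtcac

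The CRE core was in 5 of the 7 windows, those of Egr2, Nr4a1, Nr4a2, Nr4a3 and Dusp1, and in 19.8% of the 27025 genes with a window. Each NR4A gene held 4 matches, of which the Nr4a3 stretch shows 3, the other lying in an annotated exon. The full CRE, TGACGTCA, which contains the core, was matched in Dusp1 and in 1.77% of genes. The CArG box was matched in Egr2 and in 1.62% of genes. An EGR site, GCGNGGGCG, was matched in Nr4a1 and Nr4a2 and in 5.33% of genes. The SP1 site GGGCGG, which can overlap the EGR site, was in all 7 windows (for Egr2, in 2 of its 5 alternative start windows, not the one printed) and in 35.4% of genes. The TATA letters TATAAA were matched in Nr4a2, on the opposite strand, and in 14.3% of genes. The AP-1 site TGANTCA (7.82% of genes) and the NR4A monomer site AAAGGTCA (1.55%) were matched in 0 of the 7. These matches are letters in a window and no measurement of binding.

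**Figure D1:**
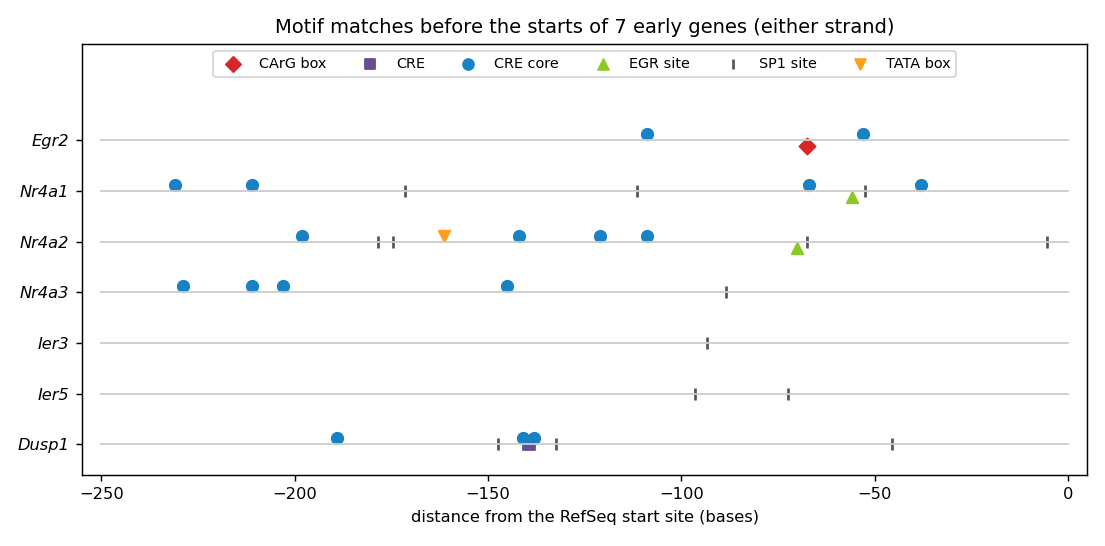
Motif matches in the 250 bases before the RefSeq start of 7 early genes, 1 line per gene, with distance from the start in bases on the horizontal axis and 1 symbol per match on either strand. For Egr2 the start window of the printed stretch is drawn. The 3 NR4A genes hold 4 CRE cores each, and the CArG box appears in Egr2 only.

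Levels of 1 gene across libraries are given as CPM, counts relative to a library size scaled by edgeR's TMM factors, and levels of different genes within a library as TPM, which also divides by gene length. Total counts were 13011489 to 23763830 per library, and the members held 781 to 52481 counts each, so counting error is small for all of them. Together they took 0.755% to 0.778% of the raw counts. Counts on genes of the mitochondrial genome made up 10.6% and 10.7% of the unirradiated libraries and 3.03% and 2.97% of the irradiated ones. The same CPM of a gene corresponds to 1.43 times the TPM in the irradiated libraries, so TPM is not used here to compare groups. Egr1 and Ier5 show what that does: their mean TPM was higher in the irradiated libraries (1525 against 1221 for Egr1, 416 against 344 for Ier5), while their CPM was lower.

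Early genes were among the most abundant transcripts in both groups. Ier3 ranked 19th to 52nd by TPM among the 30172 genes with a count. Nr4a1 ranked 56 to 112, Ier2 55 to 95, Egr1 61 to 84, Dusp1 107 to 173 and Ier5 289 to 294. Lower were Egr2, Egr3 and Nr4a2, and Nr4a3 was the lowest, at ranks 2985 to 4797. In the unirradiated libraries the order by mean TPM was Ier3 (1731), Ier2 (1666), Egr1 (1221), Nr4a1 (993), Dusp1 (990), Ier5 (344), Nr4a2 (79.2), Egr2 (58.6), Egr3 (49.2) and Nr4a3 (23.5). Nr4a1 and Dusp1 changed order between the 2 libraries. Ier3 was above Ier2 within each library, by ratios of 1.07 and 1.01, although their ranges over the libraries overlapped. In the irradiated libraries it was Ier3 (3541), Nr4a1 (1634), Egr1 (1525), Ier2 (1246), Dusp1 (757), Ier5 (416), Egr3 (135), Egr2 (108), Nr4a2 (66.8) and Nr4a3 (55.5), with no overlap between neighbours. Ier2 stood above Egr1 and Nr4a1 without radiation and below both with it, and Nr4a2 stood above Egr2 and Egr3 without radiation and below both with it.

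Irradiated and unirradiated libraries differed in all 10 genes, but not in one direction. Higher in the irradiated libraries were 5 of the 10, Egr2, Egr3, Nr4a1, Nr4a3 and Ier3, and 5 were lower, Egr1, Nr4a2, Ier2, Ier5 and Dusp1. Each of the EGR, NR4A and IER groups held genes of both directions. In the EGR group this rests on Egr1, whose small fall did not pass under total-count scaling. The members' median log2 fold change was 0.01, beside -0.0042 over all 15961 genes tested. All adjusted p-values come from the quasi-likelihood test of edgeR, adjusted by Benjamini-Hochberg over these genes. Of all tested genes, 66.4% passed the 0.05 threshold, 33.9% as higher and 32.5% as lower, so the calls by themselves do not set the members apart. Among the 2680 tested genes at least as abundant as the lowest member, 80.8% passed. A change shown to exceed 1.5-fold was found for 5 of the 10, against 23.7% of all tested genes and 17.9% of those 2680. Of the 5, Egr3 and Nr4a3 were higher, and Ier2, Dusp1 and Nr4a2 lower. In that order their log2 fold changes were 0.88, 0.51, -0.64, -0.78 and -0.85 with the trend on gene length and GC content removed. Ier3, not among the 5, was then at 0.96. These values were not tested against 1.5-fold. In bulk RNA, fewer cells of a type and less RNA per cell cannot be told apart.

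**Figure D2:**
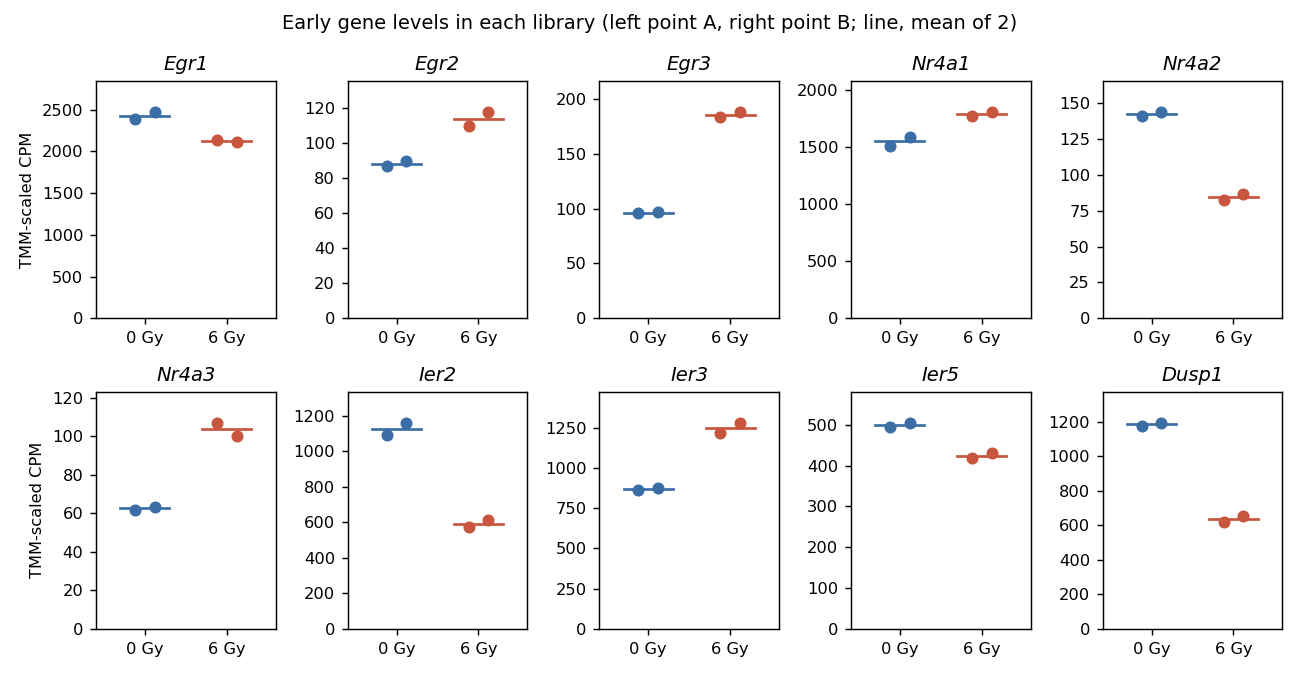
TMM-scaled CPM of each early gene (vertical axis from 0, its own scale per panel) in the 2 unirradiated (0 Gy, blue) and 2 irradiated (6 Gy, red) libraries, with the mean of 2 as a line. In none of the 10 panels do the groups overlap. The share of all genes without overlap was not computed, so this does not set the 10 genes apart. Of all tested genes, 66.4% passed the 0.05 threshold, and 80.8% of those at least as abundant as the lowest member. The libraries of a group differ by at most 0.11 on the log2 scale in these 10 genes.

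Egr1, the most studied EGR factor, was the member with the most counts. Its CPM, libraries A and B in that order here and below, was 2387 and 2474 without radiation and 2143 and 2117 with it. Both irradiated values lay below both unirradiated ones, yet the difference was the smallest of the 10. Egr1 fell by 0.19 on the log2 scale (SE 0.0343, 95% interval -0.26 to -0.12, adjusted p = 2.18e-06), and 77.1% of all tested genes had a larger change. Under scaling by total counts the value was -0.05 with an adjusted p of 0.127, so this call depends on the scaling. The gene lies at chr18:34859823-34864984 on mm10 and has 2 exons.

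Egr2, known for its part in myelination and in T cell anergy, stood at 87 and 89.8 CPM in the unirradiated libraries and at 110 and 118 in the irradiated ones. Irradiated values were above unirradiated ones without overlap. Egr2 rose by a log2 fold change of 0.37 (SE 0.0574, 95% interval 0.26 to 0.49, adjusted p = 5.85e-08). It lies at chr10:67535475-67542188 and has 2 exons. Egr3, which acts with Egr2 in lymphocytes and in muscle spindles, had the largest rise of the members. Its CPM was 96 and 96.5 without radiation, and 183 and 188 with it. The unirradiated pair were almost equal and the irradiated pair were 1.92 times higher. Its log2 fold change was 0.94 (SE 0.0526, 95% interval 0.84 to 1.05, adjusted p = 9.32e-25, and 3.88e-09 when tested against 1.5-fold). Egr3 lies at chr14:70077203-70082614.

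Among Egr1, Egr2 and Egr3, Egr1 supplied most of the RNA in every library, and the other two took a larger share in the irradiated pair. Per gene length, Egr1 made up 91.8% and 91.9% of the 3 genes' TPM without radiation and 86.6% and 85.9% with it. Egr3 made up 3.76% and 3.65%, then 7.51% and 7.75%. With Egr4, the fourth EGR gene, counted in, Egr1 made up 89.6% and 89.5%, then 78.9% and 77.7%. The ratio of Egr3 to Egr1, which does not depend on how libraries are scaled, was 0.041 and 0.0397 in unirradiated libraries and 0.0867 and 0.0902 in irradiated ones.

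Among the relatives and partners of the members, Egr4 had a larger change than any of the 3 members. Egr4 CPM was 31.4 and 35.9 without radiation and 116 and 124 with it, a log2 fold change of 1.85 (SE 0.0689, adjusted p = 6.91e-34). Its share of the 4 EGR genes' TPM was 2.46% and 2.71%, then 8.92% and 9.53%, above the shares of Egr2 and Egr3 in both irradiated libraries. Nab1 and Nab2 encode corepressors that bind EGR proteins, and Nab2 is itself an EGR target. Nab2 rose from 42.9 ± 2.15 to 79.4 ± 4.92 CPM (SD, n = 2 each), with an adjusted p of 5.77e-18. Nab1 rose from 93 ± 2.06 to 143 ± 5.12 CPM (adjusted p = 2.06e-15).

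The NR4A receptors moved apart. Nr4a1 (Nur77), known for roles in T cell receptor signalling and in monocytes, had a CPM of 1509 and 1586 without radiation and of 1769 and 1804 with it. The groups did not overlap, though the gap was small. Nr4a1 rose by a log2 fold change of 0.21 (SE 0.0357, 95% interval 0.14 to 0.28, adjusted p = 7.89e-07), and by 0.34 under total-count scaling. It lies at chr15:101254269-101274795 and its longest transcript has 8 exons. Nr4a3 (NOR1) stood at 61.9 and 63.2 CPM without radiation and at 107 and 100 with it. Irradiated libraries were 1.65 times higher. The log2 fold change was 0.73 (SE 0.0614, 95% interval 0.60 to 0.85, adjusted p = 1.85e-16, and 0.0154 against 1.5-fold). Nr4a3 lies at chr4:48045153-48086447.

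Nr4a2 (Nurr1), best known in midbrain dopamine neurons, went the other way. Its CPM was 141 and 144 in the unirradiated libraries and 82.3 and 86.6 in the irradiated ones. Unirradiated libraries were 1.69 times higher, and the pairs lay far apart relative to their own spread. Nr4a2 fell by 0.75 on the log2 scale (SE 0.055, 95% interval -0.86 to -0.64, adjusted p = 3.58e-19, and 0.00206 against 1.5-fold). It lies at chr2:57106830-57124003 on the minus strand. The ratio of Nr4a2 to Nr4a3 per length shows the opposite movement within libraries: 3.37 in both unirradiated libraries, and 1.14 and 1.27 in the irradiated ones. All 3 NR4A windows hold the 4 CRE cores given above, and a link between these matches and the changes was not tested. Nr4a1 supplied 90.5% to 93.1% of the family's TPM in all 4 libraries. Of the retinoid X receptor genes, whose products pair with NR4A1 and NR4A2, Rxra passed the test as higher, Rxrb did not pass, and Rxrg was not tested because its counts were too low.

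**Figure D3:**
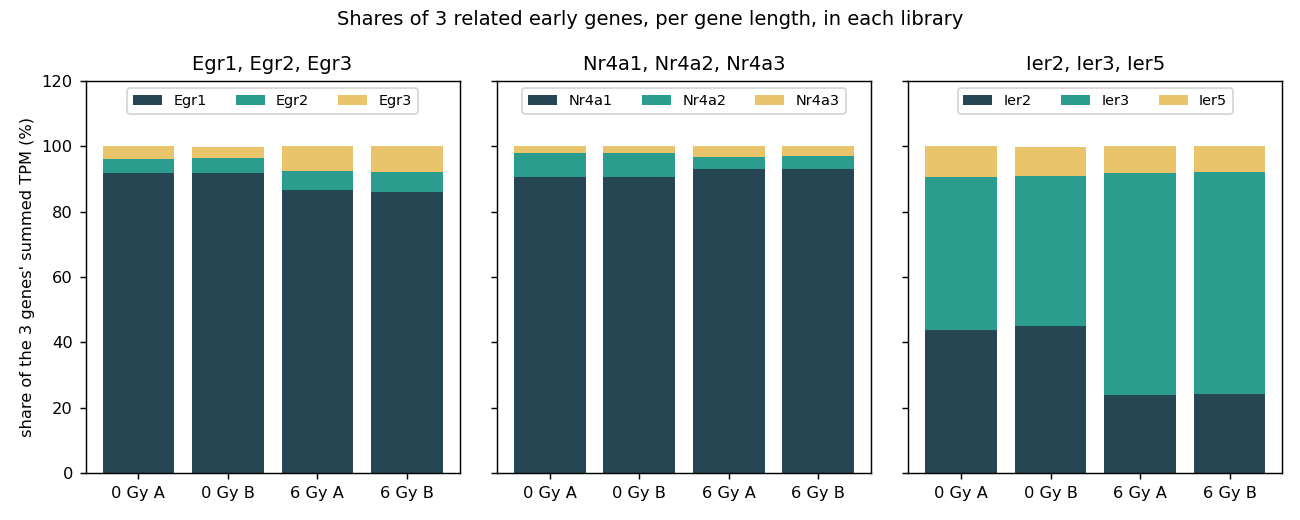
Share of the summed TPM of 3 related genes (vertical axis, percent) supplied by each of them in each library, stacked to 100, with Egr4 not included in the EGR bars. Ier2 is 43.9% and 45.1% of the IER bars without radiation and 23.8% and 24.1% with it, and Nr4a1 is 90.5% to 93.1% of the NR4A bars.

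The IER genes, which share a name for their early induction, also split. Ier2, a small nuclear protein gene with a single exon, had a CPM of 1091 and 1160 without radiation and of 571 and 611 with it. The irradiated level was 0.525 times the unirradiated one. Ier2 fell by 0.93 on the log2 scale (SE 0.0397, 95% interval -1.01 to -0.85, adjusted p = 1.12e-30, and 2.69e-12 against 1.5-fold). It lies at chr8:84661331-84662852 on the minus strand. Ier3 (IEX-1) was the most abundant member per length. Its CPM was 865 and 874 without radiation and 1215 and 1282 with it. All irradiated values were above all unirradiated ones, by 1.44-fold on average. Ier3 rose by a log2 fold change of 0.52 (SE 0.0375, 95% interval 0.45 to 0.60, adjusted p = 1.51e-19). At 1131 bases Ier3 is the shortest member, and with the trend of fold change on gene length and GC content removed its value was 0.96. It lies at chr17:35821684-35822923.

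Ier5, the heat shock factor partner, stood at 495 and 505 CPM without radiation and at 418 and 431 with it. The pairs did not overlap, and the difference was among the smaller ones. Ier5 fell by 0.23 on the log2 scale (SE 0.0409, 95% interval -0.31 to -0.15, adjusted p = 1.20e-06), and by 0.10 under total-count scaling (adjusted p = 0.0262). Ier5 lies at chr1:155096361-155099636 and has 1 exon. Per length, Ier3 and Ier2 were at similar levels without radiation, with a ratio of 1.07 and 1.01, and Ier3 exceeded Ier2 by 2.86 and 2.82 times with it. Ier5l, a gene related to Ier5, fell from 117 ± 3.1 to 56 ± 6.12 CPM (SD, n = 2 each, adjusted p = 3.01e-23). Of the 7 tested relatives and partners of the members, 4 rose, 1 fell and 2 did not pass, with a median log2 fold change of 0.60.

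Dusp1 (MKP-1), the phosphatase, had a CPM of 1177 and 1194 without radiation and of 619 and 654 with it. The unirradiated libraries were 1.86 times higher, and each pair was tight. Dusp1 fell by 0.90 on the log2 scale (SE 0.0382, 95% interval -0.97 to -0.82, adjusted p = 1.02e-30, and 1.94e-11 against 1.5-fold). It lies at chr17:26505590-26508519 on the minus strand, and its exons overlap those of Ergic1 on the other strand. The library kit does not mark strand, so reads in the overlap cannot be assigned between them. It is the only member whose exons overlap another gene.

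**Figure D4:**
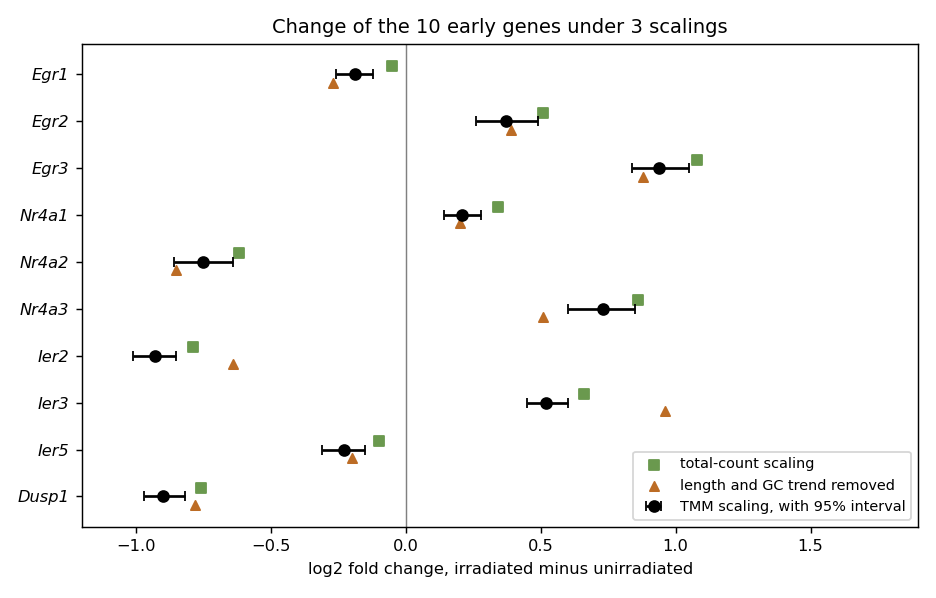
Log2 fold change of each early gene, irradiated minus unirradiated (horizontal axis), with TMM scaling and its 95% interval (black), with total-count scaling (green squares) and with the length and GC trend removed (brown triangles). Every gene keeps its side of 0 under these 3, with Egr1 at -0.05 under total-count scaling and Ier3 at 0.96 with the trend removed.

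Other genes of the same signalling route moved in both directions too. Of the other MAP kinase phosphatases, 3 of 6 rose, 1 fell and 2 did not pass (median log2 fold change 0.18). Dusp16, which acts on JNK, rose from 90.5 ± 1.37 to 158 ± 4.84 CPM, opposite to Dusp1. Dusp2, at 14.3 ± 1.9 and 11.4 ± 2.22 CPM, was called lower (adjusted p = 0.015), but DESeq2 gave it an adjusted p of 0.16. Among 15 feedback targets of ERK, 7 rose, 6 fell and 2 did not pass (median 0.16). Dusp5 and Dusp6, phosphatases that act on ERK, rose as well: Dusp5 was at 270 ± 3.5 and 588 ± 20.4 CPM, and Dusp6 at 410 ± 6.42 and 686 ± 0.915. Etv1, an ETS factor, fell from 142 ± 4.69 to 45.2 ± 2.83 CPM, and Il17rd, an inhibitor of FGF signalling, rose from 9.76 ± 2.67 to 22.4 ± 0.809.

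Of 14 SRF and CREB factors, 8 rose, 2 fell and 4 did not pass (median 0.21). Without unirradiated replicate A 5 rose and 1 fell, and with the length and GC trend removed 5 rose and 4 fell, with a median of -0.01. Srf itself was at 110 ± 2.74 CPM without radiation and rose to 195 ± 0.812, a log2 fold change of 0.83 (SE 0.0513, adjusted p = 1.57e-22). Its partner Elk1 rose from 14.5 ± 1.79 to 22 ± 1.35 CPM, and the CREB coactivator Crebbp fell from 110 ± 5.53 to 82.4 ± 4.25 CPM. Of 17 RAS genes and kinases of the MAP kinase cascades, 6 rose, 5 fell and 6 did not pass (median 0.02). Total-count scaling gave 11 higher and 5 lower, and removal of the length and GC trend 2 higher and 9 lower. Rps6ka4 (MSK2), a kinase that phosphorylates CREB and histone H3, rose from 25.6 ± 1.95 to 40.6 ± 3.03 CPM. Mapk8 (JNK1) fell from 40.7 ± 0.505 to 27.2 ± 2.05 CPM.

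AP-1 genes, the other large class of early transcription factors, were mostly lower. Of 13 tested, 7 fell, 4 rose and 2 did not pass, with a median of -0.42. Jun fell most, from 4270 ± 158 to 1356 ± 29.3 CPM (log2 fold change -1.65, SE 0.0352, adjusted p = 1.98e-47). Fos fell from 4278 ± 9.92 to 2316 ± 44.9 CPM and Fosb from 3857 ± 82.9 to 1637 ± 7.2 CPM. Batf3, at 1.54 ± 0.572 and 3.01 ± 0.767 CPM, was called higher (log2 fold change 1.07, adjusted p = 0.00324). Its value was 0.68 without unirradiated replicate A and 0.75 without irradiated replicate B, neither past the threshold. Summed over the list, AP-1 CPM was 17480 to 17990 without radiation and 9344 to 9692 with it. The 10 early genes summed to 7910 and 8187 CPM without radiation and to 7218 and 7393 with it, but as a share of raw counts their sum overlapped between groups (0.755% and 0.778% against 0.759% and 0.771%).

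Among 37 other early response genes, 16 rose, 18 fell and 3 did not pass, and the median was -0.03. Total-count scaling gave 18 higher and 12 lower. Arc, an early gene best known from neurons, had the largest change, from 71.7 ± 4.35 to 507 ± 10.1 CPM (log2 fold change 2.83, SE 0.051, adjusted p = 1.76e-51). Ctgf, a matricellular protein gene and a target of YAP and SRF, rose from 164 ± 0.114 to 639 ± 2.37 CPM. Gadd45g, a growth arrest and stress gene, fell from 291 ± 21.5 to 96.1 ± 5.57 CPM, and the transcription factor gene Klf4 fell from 647 ± 5.07 to 223 ± 4.05 CPM. Heat shock and chaperone genes, which digestion of tissue can also induce, were more uniform: 12 of 13 fell and 1 rose, with a median of -0.36. Of all tested genes, 32.5% passed as lower. For the 13, total-count scaling gave 10 lower and 1 higher, and the test against 1.5-fold 3 lower and 0 higher. The cochaperone Dnajb1 fell from 504 ± 10 to 260 ± 3.59 CPM. Hspa1a and Hspa1b, at log2 fold changes of -1.38 and -1.28, are near-identical copies whose reads cannot be assigned with certainty.

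**Figure D5:**
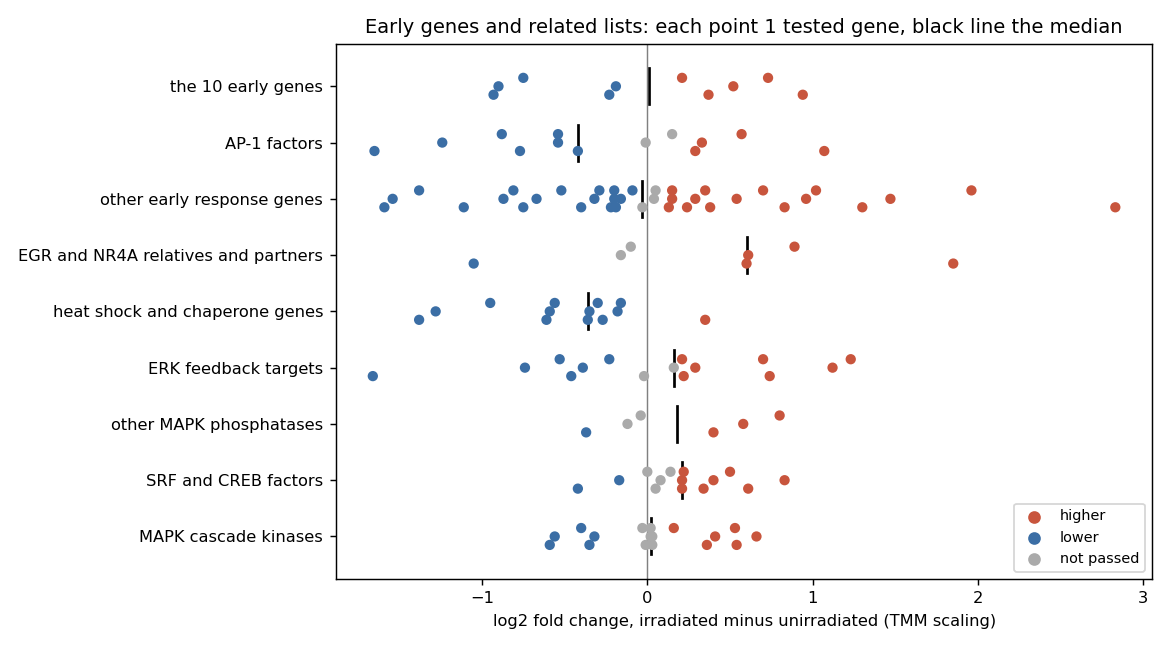
Log2 fold change, irradiated minus unirradiated (horizontal axis), of each tested gene in the 10 early genes and in 8 lists of related genes (rows), coloured by whether it passed as higher (red), passed as lower (blue) or did not pass (grey), with the list's median as a black line. The heat shock row lies left of 0 but for 1 gene, while the early genes spread to both sides with a median of 0.01.

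Of 9846 genes averaging 10 CPM or more, the 5 whose profile over the 4 libraries was closest to the members' median were Med26, Phkb, Dnajb2, Jagn1 and Irf2bp2. Their root mean square differences on the log2 scale were 0.00479 to 0.00826. That median profile is nearly flat, since rising and falling members offset each other, and these genes had log2 fold changes of 0.01 to 0.02.

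Marker genes of several cell types differed between the groups as well. The 15 fibroblast markers summed to 597 to 633 CPM without radiation and 1900 to 1909 with it, and 12 of them rose and 1 fell. The 15 epithelial and tumour cell markers summed to far more, 17019 to 17067 and 12856 to 13419 CPM, in libraries labelled as fibroblasts. Of these, 9 fell and 3 rose. Macrophage markers summed to 331 to 332 and 827 to 829 CPM (11 of 13 tested rose), endothelial markers to 108 to 113 and 233 to 243 CPM (11 of 11 rose), and pericyte and smooth muscle markers to 249 to 262 and 442 to 447 CPM (7 of 10 rose). T and NK cell markers summed to 12.8 CPM in both unirradiated libraries and to 5.25 to 5.29 in the irradiated ones (5 of 7 tested fell). Neutrophil markers summed to 376 to 381 and 2144 to 2146 CPM, of which Ltf, also made by mammary epithelium, accounted for 309 ± 8.98 and 2105 ± 24.8 (6 of 9 tested fell and 1 rose). That count of neutrophil markers rests on irradiated replicate B: without it 1 fell and 1 rose, and DESeq2 on all libraries also called 1 lower and 1 higher. S100a9, for example, was at 14.9 CPM in irradiated A and 2.18 in irradiated B, and Ngp at 9.74 and 0.646. No marker of these 7 lists had 0 counts in all 4 libraries. All of these cell types can express early genes, and the part of the cell mixture in the members' differences was not tested.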

How the data were processed

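RNA from 4 mouse tumour-derived samples was sequenced as poly(A)-selected, unstranded libraries, per the labels' protocols. The submitters' processing notes name the mm10 genome and the tools STAR 2.5, HTSeq 0.6.1 and DESeq2. The sources used here give neither annotation nor settings. The authors deposited whole-number counts per gene, not normalized, with gene coordinates and lengths per the file headers.

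Counts were tested with edgeR 4.0.16 in R 4.3.3 (filterByExpr, TMM factors, quasi-likelihood F-test on group), adjusted by Benjamini-Hochberg over 15961 genes, threshold 0.05. Dividing the size of a log2 fold change by the root of its F value gave its standard error, and 95% intervals use the fit's degrees of freedom (2 residual and a median of 60 prior). CPM uses TMM-scaled library sizes, and TPM uses the deposited gene lengths over all genes. A test against 1.5-fold used glmTreat. The procedure was tested on simulated counts with planted changes, of which it recovered most, and fewer at small folds. That simulation changed only a small part of the genes and gave every gene the same spread between libraries. It therefore does not show how the procedure performs where most genes differ, as here. Alternatives were other scalings, DESeq2 1.42.0, other filters, a replicate block, a length and GC trend (spline, 5 degrees of freedom) and leaving out each library.

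The libraries of a pair differed by 2.11 and 2.14 times the counting noise (median chi-square ratio), so each was kept as a replicate. No batch is labelled, and one shared by a group's libraries cannot be told apart from radiation. The members and all gene lists were chosen with earlier results of these data known. Named genes are the 10 members, up to 4 genes per list past the threshold with a mean of at least 1 CPM and the largest change, and the 5 genes closest to the members' median profile. No set test was run on any list.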

Additional observations from a re-analysis of the deposited data

How the results depend on the processing

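Over 13 alternatives the 10 early genes gave 130 log2 fold changes. Of these, 124 kept direction and side of the threshold, 6 kept direction but no longer passed, and 0 reversed. Of the 6, 5 came from the test against 1.5-fold, under which 2 early genes were higher and 3 lower, and 2032 and 1754 of all genes. The other was Egr1 under total-count scaling, an alternative chosen after seeing the data. That scaling moved the median of all tested genes to 0.131 and gave 6700 higher and 4019 lower calls, beside 5409 and 5184 with TMM. DESeq2 called 4499 and 4041. Leaving out each library in turn gave 4935 to 5188 higher and 4457 to 4728 lower calls, with 5 early genes higher and 5 lower each time; the lone library of a group is then assumed to vary like the other group's. With the letter as a replicate block, 5418 genes were higher and 5200 lower, again with 5 and 5 early genes; same-letter deviations correlated at 0.0116, so the letters are not shown to pair samples. Of 767 values for 59 other named genes, 729 kept their call, 37 no longer passed and 1 reversed: the neutrophil gene Camp, 0.25 without irradiated replicate B -3.31 without irradiated replicate A and -0.89 with all libraries, as irradiated A held 4.39 and B 0.363 CPM. Depth limits none of the 10 early genes, the lowest of which had 781 counts in a library.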
